A study of Mus musculus with 12 samples.

Results

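The genes described here encode the beta subunits of the sodium-potassium ATPase (Na,K-ATPase). They are *Atp1b1*, *Atp1b2* and *Atp1b3*, 3 of the 55487 gene identifiers counted in the mouse lens, and they were taken by gene symbol as a family. Lens RNA at an age of 7 days (P7) was sequenced in 12 libraries, 3 from each of 4 genotypes, with 4 male and 4 female lenses given as the input of each library. Mice labelled *Trpm3* I/M were heterozygous, and those labelled *Trpm3* M/M homozygous, for a knock-in that replaces an isoleucine of the TRPM3 cation channel by methionine, and both develop cataract early. *Trpm3* KO mice carried a cassette inserted into *Trpm3* by homologous recombination and kept clear lenses, and wild-type (WT) mice served as the reference. These genotypes are called I/M, M/M, KO and WT from here on. All were on the B6J background. The comparisons ask how the sodium pump genes of the lens differ when the channel is mutated and when it is disrupted.

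The Na,K-ATPase exports sodium and imports potassium at the expense of ATP, and the gradients it builds drive much of the other transport across the plasma membrane. Its catalytic alpha subunit binds the ions and splits ATP. The beta subunit is a glycoprotein with a single membrane span that alpha needs for folding, for delivery to the surface and for its affinity for potassium, and small FXYD proteins tune the assembled pump. In the lens, which has no blood vessels of its own, pump activity is concentrated in the epithelium and outer fibers and is tied to lens clarity. *Atp1b1* encodes the beta-1 chain of most epithelia, *Atp1b2* the beta-2 chain, also known as an adhesion molecule of glia, and *Atp1b3* the widely expressed beta-3 chain.

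In short, the makeup of the pump's beta transcripts differed by genotype, with *Atp1b3* the main beta gene in the mean of each. Per length it held 93.3% of the beta transcripts in WT, 68.8% in I/M and 55.3% in M/M lenses, nearly all of the rest being *Atp1b1*. *Atp1b1* was 5.11-fold higher in I/M and 7.13-fold higher in M/M lenses than in WT lenses, and *Atp1b3* was lower by a smaller ratio that depended on how libraries were scaled. *Atp1b2* had low counts in every library. It was higher in M/M than in WT lenses, while I/M and KO libraries overlapped those of WT. With 3 libraries against 3, the exact test used for these comparisons cannot go below p = 0.1.

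All 3 genes lie on the reverse strand of GRCm38. *Atp1b1* (ENSMUSG00000026576) is at chr1:164437109-164458355, *Atp1b2* (ENSMUSG00000041329) at chr11:69599736-69605942 and *Atp1b3* (ENSMUSG00000032412) at chr9:96332655-96364442. Their exons together cover 3081, 4085 and 2389 bases. Because *Atp1b1* was higher and *Atp1b3* lower in the mutants relative to the bulk of the genes, their promoters are shown next to each other. Each window runs from 250 bases before to 50 bases after the RefSeq start (GRCm38.p6), at chr1:164458306-164458605 for *Atp1b1* and at chr9:96364382-96364681 for *Atp1b3*. The sequences are written 5′ to 3′ on the gene's strand, with capitals where a motif named below matched on either strand:
Atp1b1: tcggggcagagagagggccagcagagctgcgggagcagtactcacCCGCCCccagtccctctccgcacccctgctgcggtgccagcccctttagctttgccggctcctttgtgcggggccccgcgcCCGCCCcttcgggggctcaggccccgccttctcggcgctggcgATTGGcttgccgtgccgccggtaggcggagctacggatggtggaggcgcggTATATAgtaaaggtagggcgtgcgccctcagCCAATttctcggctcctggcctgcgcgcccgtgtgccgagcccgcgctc
Atp1b3: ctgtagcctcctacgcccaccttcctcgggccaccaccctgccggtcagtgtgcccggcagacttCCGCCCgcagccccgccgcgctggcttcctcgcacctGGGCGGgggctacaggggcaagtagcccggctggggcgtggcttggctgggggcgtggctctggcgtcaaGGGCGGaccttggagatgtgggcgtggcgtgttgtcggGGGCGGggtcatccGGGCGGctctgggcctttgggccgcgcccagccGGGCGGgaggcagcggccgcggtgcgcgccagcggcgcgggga
Both windows were rich in G and C, at 71.0% for *Atp1b1* and 76.0% for *Atp1b3*, against a median of 52.7% over 32851 mouse promoter windows. Both strands were searched for the strings named next. The *Atp1b1* window held TATATA at base -30 from the start, and 5.67% of all windows hold that run. It also held CCAAT at -81 and at 2 (37.4% of windows hold it) and GGGCGG at -205 and -124 (35.7% of windows). The *Atp1b3* window held the GC box GGGCGG at 6 places and neither of the other strings. The TATA box TATAAA, found in 13.6% of windows, was in neither promoter. The cyclic AMP element TGACGTCA, found in 1.79% of windows, was in neither as well. These matches describe the letters of the windows only. A second RefSeq start of *Atp1b3* had no match, and *Atp1b2* is named only.

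Between 56162182 and 82090262 counts fell on genes in each library. Counts are given as CPM, scaled to a common library size after edgeR's TMM factors, which put the bulk of genes at a ratio of 1 from library to library. Without these factors the median of the 8984 tested genes rose by 0.504 on the log2 scale in M/M and by 0.2 in I/M against WT, while 16 crystallin genes fell from 62.1% ± 1.56 (SD, n = 3) of the counts in WT to 50.5% ± 1.01 in M/M. The targeted gene, *Trpm3*, ranged from 250.6 to 285.1 CPM in WT, from 89.9 to 99.8 in KO, from 370.2 to 413.4 in I/M and from 468.5 to 484.1 in M/M libraries. Its counts cover the whole gene, so fusion transcripts of the targeted allele were not separated, and they are no full check of the disruption. I/M replicate 3 goes against the stated mix of sexes, with *Xist* at 0.0721 CPM against 74.0 and 121.0 CPM in the other I/M libraries. Values without this library are given for *Atp1b1* and *Atp1b3* in I/M over WT. The lens markers (9 of fibers, 5 of epithelium) were all counted in every library, with fiber markers summing to 43910 to 49400 CPM in WT and 23610 to 26670 CPM in M/M lenses. The epithelium markers summed to 270.5 to 306.3 CPM in WT, 199.3 to 222.2 in I/M and 177.2 to 183.2 in M/M libraries, though they did not move as one, with means from WT to M/M going from 90.8 to 19.2 CPM for *Foxe3* and from 9.15 to 27.98 CPM for *Aqp1*. A gene was called changed at a fold change (FC) of at least 2 and a false discovery rate (FDR) of at most 0.05. By this rule 51 genes were called in KO, 299 in I/M and 804 in M/M lenses against WT, and 71.8% of the latter were higher, or 94.3% of 1354 without the TMM factors. Of the 3 beta genes, *Atp1b1* and *Atp1b3* passed the filter on low counts (CPM of at least 5 in at least 3 libraries) and were tested. *Atp1b2* did not pass it.

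*Atp1b1*, the beta-1 chain, was lower in WT and KO lenses than in I/M and M/M lenses. WT libraries held 13.0, 10.97 and 12.7 CPM (replicates 1 to 3) and KO libraries 12.6, 12.8 and 13.3 CPM. I/M libraries held 68.9, 65.4 and 53.2 CPM, and M/M libraries 94.3, 89.5 and 77.7 CPM. The WT and KO libraries overlapped, all I/M libraries were above them, and all M/M libraries were above those of I/M. Such separation from WT held for 44.6% of all tested genes in I/M and 65.2% in M/M, from KO for 52.4% and 70.9%, and between the mutants for 60.5%. The underlying counts ran from 521.53 to 659.19 in WT and from 6888.05 to 8248.6 in M/M libraries.

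**Figure D1:**
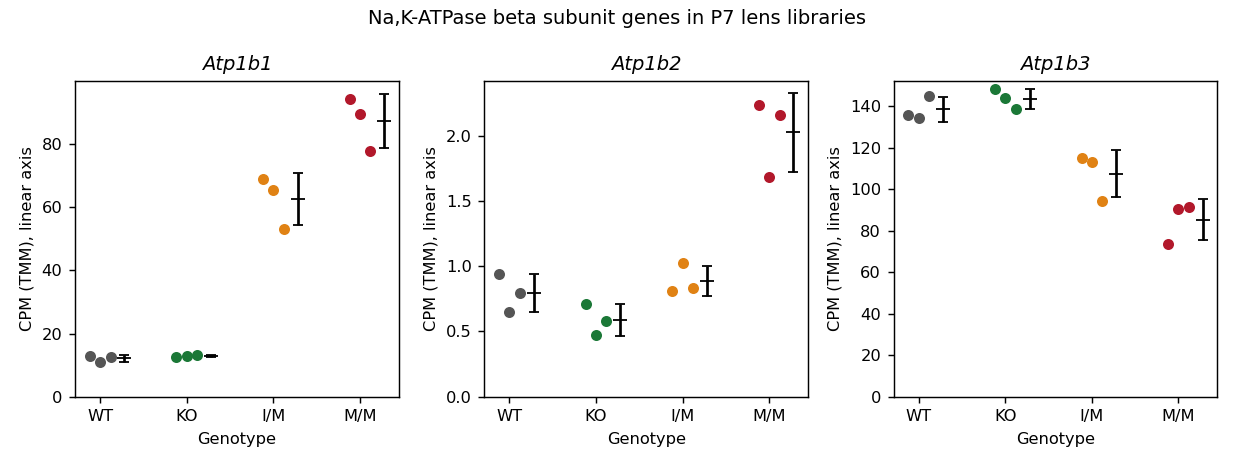
CPM (TMM-scaled, linear axis from 0) of the 3 beta subunit genes by genotype, 1 point per library, with the mean and SD of the 3 libraries beside them. *Atp1b1* rises from 12.2 CPM in WT to 87.2 CPM in M/M lenses, *Atp1b3* is lower in both mutants, and *Atp1b2* stays at or below 2.24 CPM everywhere.

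In I/M lenses the log2 FC of *Atp1b1* over WT was 2.35 (SE 0.10, FDR = 2.82e-09, edgeR quasi-likelihood test), and 2.58% of the 8984 tested genes were called higher in that comparison. In M/M lenses it was 2.83 (SE 0.10, FDR = 9.34e-11), where 6.42% of tested genes were called higher. By log2 FC *Atp1b1* ranked 66 from the top of all tested genes in I/M and 157 in M/M. KO lenses gave a log2 FC of 0.08 (SE 0.11, FDR = 0.758), against the 0.234% of tested genes called higher in that genotype. Compared directly, *Atp1b1* was higher in M/M than in I/M lenses by 0.48 on the log2 scale (SE 0.09, FDR = 0.000847), a 1.39-fold difference that passed the FDR threshold, as 25.6% of tested genes did in this direction, but not the FC threshold. Against KO lenses the log2 FC was 2.28 in I/M (FDR = 2.65e-09) and 2.75 in M/M lenses (FDR = 1.06e-10), where 2.93% and 6.85% of tested genes were called higher. Those comparisons reuse the mutant libraries and add no independent mutant samples. Without I/M replicate 3, the lowest of its group, the log2 FC of I/M over WT was 2.46.

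*Atp1b3*, the beta-3 chain, was the most abundant of the 3 genes per length in the mean of every genotype. WT libraries held 136.0, 134.4 and 145.2 CPM and KO libraries 148.2, 144.2 and 138.6 CPM, and these overlapped. I/M libraries held 115.0, 113.0 and 94.5 CPM, and M/M libraries 73.8, 90.7 and 91.3 CPM. Every I/M library was below every WT library, and every M/M library below every I/M library. Libraries did not overlap for 44.6% of all tested genes between I/M and WT and for 60.5% between M/M and I/M. The log2 FC over WT was -0.37 in I/M (SE 0.09, FDR = 0.00534) and -0.70 in M/M lenses (SE 0.09, FDR = 9.91e-06). Neither reached the FC threshold, and 15.3% and 31.4% of all tested genes were lower at this FDR in the same comparisons. M/M lenses were lower than I/M lenses by a log2 FC of -0.33 (SE 0.09, FDR = 0.00531), where 25.7% of tested genes were lower at this FDR. In KO lenses the log2 FC was 0.05 (SE 0.09, FDR = 0.81). Without I/M replicate 3, the lowest of its group here too, I/M lenses were at -0.28 against WT (FDR = 0.0228).

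The lower *Atp1b3* level was a level relative to the bulk of the genes. With library size as the only scaling, the log2 FC was -0.17 in I/M (adjusted p = 0.146 from the same test) and -0.19 in M/M lenses (adjusted p = 0.0732), both short of the threshold, while the median of all genes stood at 0.2 and 0.504. *Atp1b1* was called changed also on that scale, at 2.55 in I/M and 3.34 in M/M lenses. In RNA from whole lenses, fewer cells of a type and less RNA per cell cannot be told apart.

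**Figure D2:**
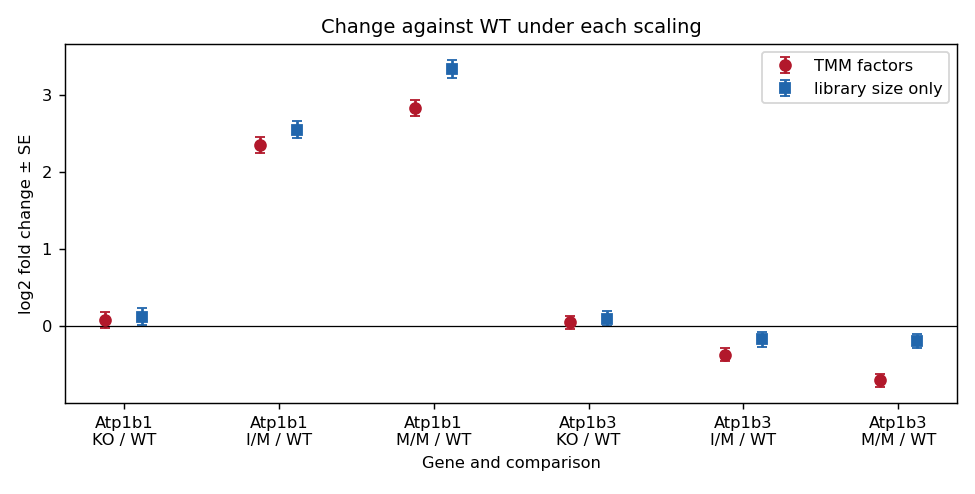
Log2 fold change over WT (vertical axis, bars are the SE of the fit) of *Atp1b1* and *Atp1b3* in each other genotype, with TMM factors (circles) and with library size only (squares). *Atp1b1* in M/M lenses is at 2.83 and 3.34 on these scales, and *Atp1b3* at -0.70 and -0.19.

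*Atp1b2*, the beta-2 chain, was counted 31 to 48 times in WT libraries and 155 to 191 times in M/M libraries. WT libraries held 0.944, 0.651 and 0.793 CPM, and KO libraries 0.710, 0.470 and 0.582 CPM. I/M libraries held 0.809, 1.02 and 0.836 CPM, and M/M libraries 2.24, 1.68 and 2.15 CPM. The M/M libraries lay above all 9 others, while WT overlapped both KO and I/M libraries. Among tested genes, which exclude *Atp1b2*, M/M libraries stood apart from WT for 65.2%, from I/M for 60.5% and from KO for 70.9%. The mean of M/M libraries was 2.54 times that of WT (p = 0.1 by a two-sided exact permutation test, which is as low as 3 libraries against 3 can go). Against I/M the ratio was 2.28 and against KO 3.45, each with the same exact p = 0.1. KO over WT gave a ratio of 0.738 (exact p = 0.2) and I/M over WT 1.12 (exact p = 0.4). I/M libraries lay above all KO libraries, with a ratio of 1.51 (exact p = 0.1). These 2 genotypes stood apart for 52.4% of tested genes.

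A filter at CPM of at least 1, which *Atp1b2* passed through its M/M libraries and I/M replicate 2, brought the gene into the edgeR fit. There the log2 FC over WT was 1.32 in M/M, 0.16 in I/M and -0.44 in KO lenses. Since the gene entered that fit mainly through the group where it was high, these values are a description and no test is drawn from it. *Atp1b4*, a further member of the beta family, had 0 or 1 count in each library, under the 3 counts that a count of 0 allows.

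Levels of different genes were compared per length, as CPM per kilobase of exon. In WT lenses *Atp1b3* stood at 58.0 ± 2.44 (SD, n = 3), *Atp1b1* at 3.96 ± 0.353 and *Atp1b2* at 0.195 ± 0.0358 CPM per kilobase. In M/M lenses the same genes stood at 35.7 ± 4.15, 28.3 ± 2.76 and 0.496 ± 0.0736. *Atp1b1* thus moved from above 54.9% of tested genes in WT to above 88.3% in I/M and 91.7% in M/M lenses. *Atp1b3* remained high, above 95.5% of tested genes in WT and 93.4% in M/M lenses.

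Expressed as a share of the summed beta transcripts per kilobase, which no scaling between libraries can alter, *Atp1b1* took 6.86%, 5.93% and 6.35% in WT libraries and 6.16%, 6.45% and 6.92% in KO libraries. Its share was 31.6%, 30.9% and 30.3% in I/M and 49.3%, 43.1% and 39.4% in M/M libraries. The WT and KO shares overlapped, and the shares of both mutants stood apart from them and from each other. M/M libraries differed most among themselves, and in replicate 1 *Atp1b1* and *Atp1b3* were nearly level at 49.3% and 49.8%. The mean share was 24.5 percentage points higher than WT in I/M and 37.6 points higher in M/M lenses (exact permutation test, p = 0.1 for each, the smallest possible). It was 13.0 points higher in M/M than in I/M (exact p = 0.1) and 0.13 points higher in KO than in WT lenses (exact p = 0.7). *Atp1b2* made up 0.314% of the beta transcripts in WT and 0.773% in M/M lenses.

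**Figure D3:**
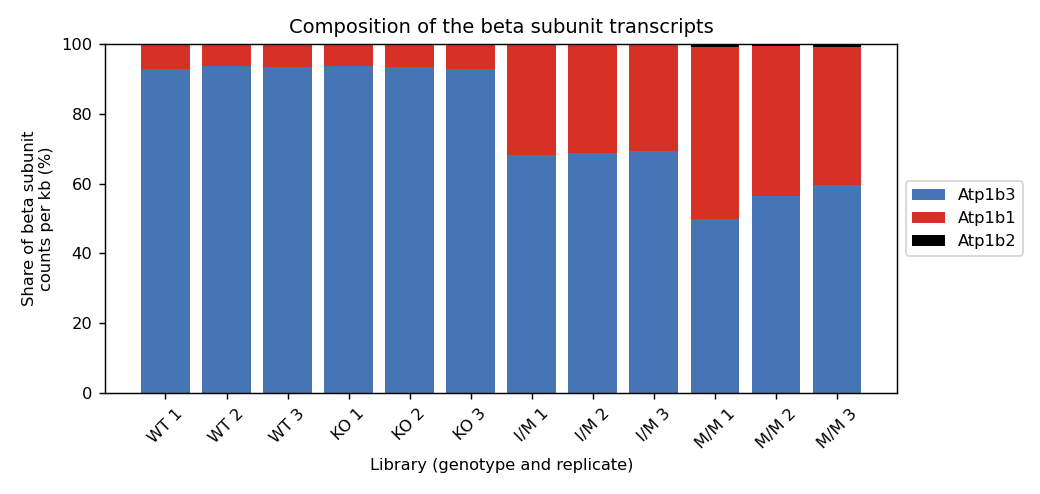
Share of each beta subunit gene in the summed beta subunit counts per kilobase of exon (percent, stacked to 100), 1 bar per library. *Atp1b1* takes 5.93% to 6.92% in WT and KO libraries, 30.3% to 31.6% in I/M and 39.4% to 49.3% in M/M libraries, the remainder being almost all *Atp1b3*.

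The ratio of *Atp1b1* to *Atp1b3* within a library, from counts with a pseudocount of 0.5 and not divided by length, had a mean log2 value of -3.51 ± 0.112 (SD, n = 3) in WT and 0.03 ± 0.296 in M/M lenses. It was -3.48 ± 0.0901 in KO and -0.79 ± 0.0454 in I/M lenses. The differences from WT were 2.72 in I/M, 3.54 in M/M and 0.03 in KO, with exact p = 0.1, 0.1 and 0.7. The sum over the 3 beta genes moved far less than its composition. It was 62.1 ± 2.65 CPM per kilobase in WT, 64.5 ± 1.90 in KO, 65.5 ± 7.40 in I/M and 64.5 ± 2.71 in M/M lenses (exact p = 0.4 for M/M against WT, with overlapping libraries). With library size only, the sum was 54.5 ± 4.48 in WT and 80.5 ± 4.25 in M/M lenses, without overlap (ratio 1.48, exact p = 0.1), so a difference in the total was present on one scale and not on the other.

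Among all tested genes, those whose pattern over the 12 libraries lay closest to *Atp1b1* were *Loxl2*, *Dcdc2a*, *Chrdl1*, *Megf10* and *Anpep*. Likeness was the root mean square difference of log2 CPM after centring each gene, which ran from 0.167 for *Loxl2* to 0.27 for *Anpep*, against 1.29 for *Atp1b1* about its own mean. The 5 genes were picked for their likeness in these same libraries, which share their depth and cell content across genes. Their likeness to *Atp1b1* is therefore a description. *Loxl2*, a lysyl oxidase that crosslinks matrix, was at 25.8 ± 1.66 CPM in WT, 25.6 ± 1.76 in KO, 108.3 ± 1.91 in I/M and 174.9 ± 5.01 in M/M libraries. *Chrdl1*, a secreted BMP antagonist, had log2 FCs over WT of 1.80 in I/M and 2.57 in M/M lenses. *Anpep*, an aminopeptidase of the cell surface, was the one gene of these 5 that was not higher in M/M than in I/M lenses (means of 10.5 and 10.9 CPM). *Dcdc2a* (means of 1.22 CPM in WT and 1.43 in KO) and *Anpep* (1.85 and 1.89) passed the filter on low counts only through mutant libraries. No test is drawn from either.

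**Figure D4:**
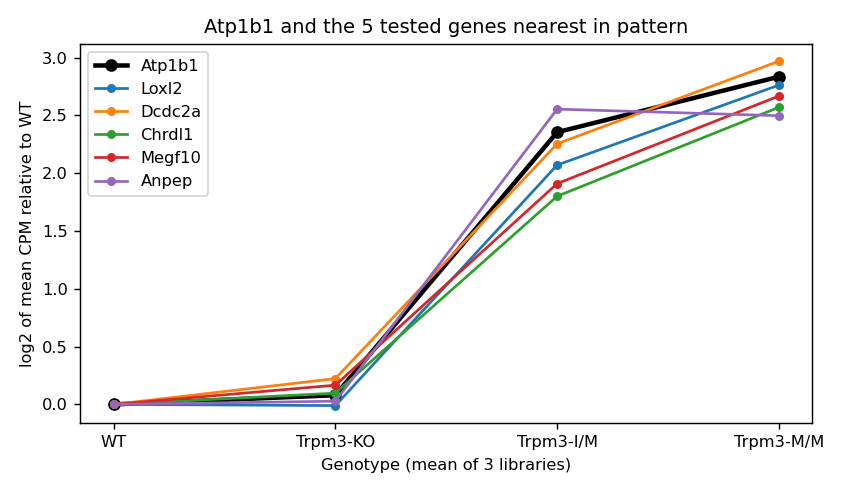
Log2 of mean CPM relative to WT (3 libraries per genotype) for *Atp1b1* and the 5 tested genes nearest to it in pattern over the 12 libraries. All 6 lines stay near 0 in KO and lie at 1.80 or above in I/M lenses, and only that of *Anpep* does not rise further in M/M. The 5 genes were picked by this pattern, so their likeness to *Atp1b1* is a description.

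Of 15 other genes listed as partners of the pump or as related pumps, *Fxyd1* alone passed the filter. *Fxyd1* encodes phospholemman, a small regulator that binds the pump. It held 11.7, 14.6 and 12.2 CPM in WT, 15.7, 13.9 and 14.0 CPM in I/M and 19.9, 23.2 and 23.3 CPM in M/M libraries. The M/M libraries were above all others, and the I/M and WT libraries overlapped. Among all tested genes, M/M libraries stood apart from WT for 65.2%, from I/M for 60.5% and from KO for 70.9%. The log2 FC of *Fxyd1* over WT was 0.79 in M/M lenses (SE 0.09, FDR = 2.94e-06), where 31.4% of tested genes were higher at this FDR. In I/M lenses it was 0.18 (SE 0.09, FDR = 0.132). The I/M value passed the threshold with library size only (0.39, FDR = 0.00148) and without WT replicate 2 (0.28, FDR = 0.0222). In KO the log2 FC over WT was 0.13 (FDR = 0.5).

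*Fxyd5*, whose product dysadherin binds the pump and weakens cell adhesion, had 0, 3 and 2 counts in WT libraries. KO libraries had 0, 2 and 0, I/M libraries 9, 15 and 11 and M/M libraries 215, 353 and 383 counts. Groups other than WT and KO did not overlap. Among tested genes, which exclude *Fxyd5*, such separation from WT held for 44.6% in I/M and 65.2% in M/M lenses. Taken against a floor of 3 counts per WT library, the mean of M/M libraries was at least 59.7-fold higher. *Nkain3*, which encodes a protein that interacts with the beta-1 chain, was at 1.13 ± 0.123 CPM in WT, 0.869 ± 0.062 in KO, 3.01 ± 0.108 in I/M and 1.70 ± 0.11 in M/M libraries, and so was highest in the heterozygote. *Nkain1* and *Nkain2* stayed at or below 1.24 CPM in the mean of each genotype, and *Nkain4*, *Fxyd2*, *Fxyd3*, *Fxyd4*, *Fxyd6*, *Fxyd7* and the proton pump genes *Atp4a*, *Atp4b* and *Atp12a* at or below 0.772 CPM. None of these was tested.

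**Figure D5:**
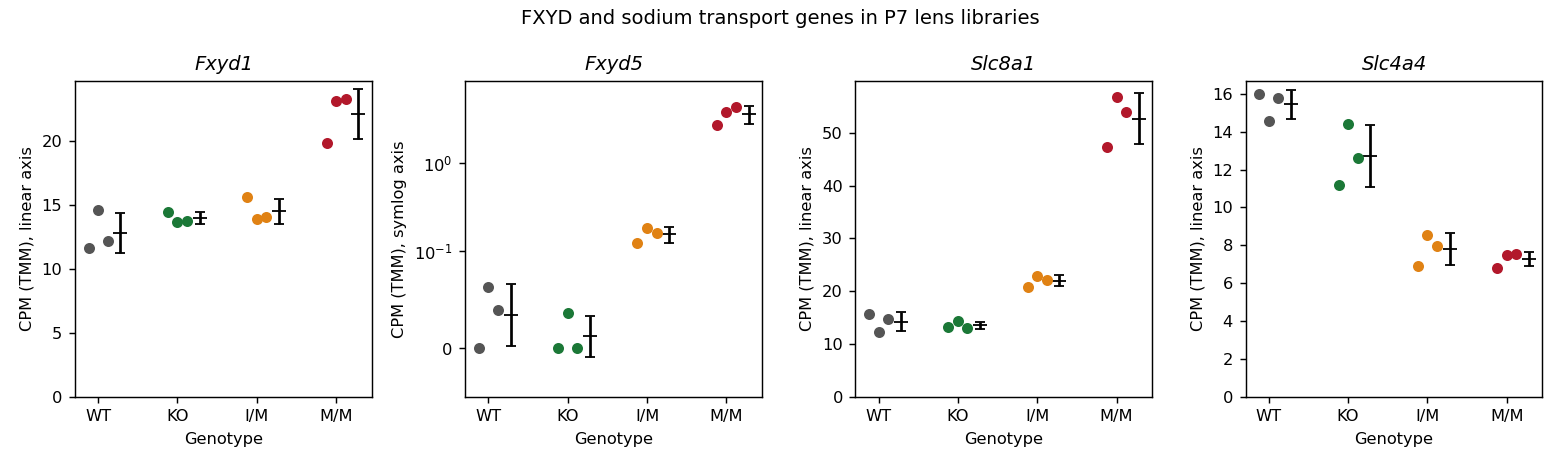
CPM by genotype for *Fxyd1*, *Fxyd5*, *Slc8a1* and *Slc4a4*, 1 point per library with mean and SD beside them. The *Fxyd5* axis is symmetric-log (linear under 0.1 CPM), and the other axes are linear from 0. *Slc8a1* reaches 52.7 CPM in M/M against 14.3 CPM in WT, and *Slc4a4* falls from 15.5 to 7.28 CPM.

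The pump's gradient is used by sodium-coupled carriers. Of 28 genes listed for such transport, 11 were tested, and in M/M lenses 7 were higher and 3 lower than WT at an FDR of at most 0.05, with a median log2 FC of 0.37 against -0.00417 over all tested genes (where 31.4% were higher and 31.4% lower). *Slc8a1*, the plasma membrane exchanger of sodium for calcium, rose by a log2 FC of 1.89 (FDR = 7.53e-10), from 14.3 ± 1.76 to 52.7 ± 4.86 CPM, and reached 21.9 ± 1.03 CPM in I/M lenses (log2 FC 0.62, FDR = 0.000115). *Slc12a4*, which carries potassium with chloride and not sodium, rose by 0.67 (FDR = 5.07e-06). *Slc4a4*, a sodium-bicarbonate cotransporter, fell by 1.09 on the log2 scale in M/M (FDR = 4.07e-07) and by 0.98 in I/M (FDR = 4.42e-06). *Slc9a8*, a sodium-proton exchanger of the Golgi, and *Scnn1b*, a chain of the epithelial sodium channel, fell by 0.91 each in M/M lenses (FDR = 1.81e-06 and 2.53e-05). In I/M lenses 2 of the 11 were higher and 3 lower (17.3% and 15.3% of all tested genes), and in KO lenses 1 passed the threshold, and it was lower (2.2% of tested genes).

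Of 16 genes listed as regulators of the pump or of sodium transport, 10 were tested, with 5 higher and 2 lower in M/M lenses (median log2 FC 0.18 against -0.00417 over all tested genes, of which 31.4% were higher and 31.4% lower). In I/M 2 were higher and 2 lower, against 17.3% and 15.3% of all tested genes. In KO lenses 1 passed, *Nedd4l*, a ubiquitin ligase of sodium channels, which was higher by 0.26 (FDR = 0.0202, where 2.16% of tested genes were higher). It did not pass without WT replicate 3 (FDR = 0.086), KO replicate 2 (FDR = 0.0849) or KO replicate 3 (FDR = 0.11). *Stk39*, the kinase SPAK that acts on sodium and chloride carriers, rose by 0.75 in M/M (FDR = 6.11e-08) and by 0.39 in I/M lenses (FDR = 9.92e-05). *Trpv4*, a cation channel placed upstream of pump activity in the lens epithelium, was at log2 FCs of 1.23 in I/M and 0.74 in M/M lenses. Its mean was 3.04 CPM in WT, 3.04 in KO, 7.12 in I/M and 5.09 in M/M lenses. *Trpv4* thus passed the filter on low counts only through mutant libraries. Its values are therefore a description and no test is drawn from them, though the counts of higher genes above include it in both mutants. *Sik1*, a salt-inducible kinase, rose by 0.54 in M/M (FDR = 1.3e-05). *Yes1*, a Src family kinase, fell by 0.58 (FDR = 2.29e-05) with TMM factors but was at -0.08 with library size only (adjusted p = 0.462 from edgeR). In M/M lenses *Nedd4l* was at -0.15 with TMM factors (FDR = 0.0378) and at 0.36 with library size only. The former did not pass without WT replicate 1 or 2 or M/M replicate 2 or 3 (FDR from 0.0786 to 0.256).

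Marker sums of other cell types also differed between genotypes, in ways that varied by cell type. The 6 endothelial markers, all counted in I/M and M/M, summed to 5.74 to 8.07 CPM in WT, 17.0 to 23.1 in I/M and 42.5 to 49.5 in M/M libraries, with *Emcn* at no more than 3 counts in WT. The 5 pericyte and smooth muscle markers summed to 73.8 to 89.9 CPM in WT, 97.3 to 123.3 in I/M and 225.4 to 313.0 in M/M libraries. *Acta2* made up most of these sums, with means of 68.3 CPM in WT and 211.6 in M/M. The mean of *Pdgfrb* was 12.15 CPM in WT, 17.9 in KO and 17.2 in M/M, and that of *Rgs5* was 0.507 in WT and 31.1 in M/M. For 4 fibroblast markers the ranges were 3.93 to 4.62, 3.26 to 3.99 and 45.3 to 97.8 CPM, with *Lum* at no more than 3 counts in every group and *Dcn* in WT. In M/M libraries the fibroblast sum was mostly *Col1a1*, with a mean of 54.3 CPM against 12.3 for *Col1a2*. For 5 macrophage markers they were 0.337 to 0.399, 0.577 to 0.647 and 4.73 to 9.25 CPM, with *C1qa* at no more than 3 counts in WT. The 8 photoreceptor markers summed to 0.693 to 0.912 CPM in WT, 0.728 to 0.778 in I/M and 1.58 to 4.60 in M/M libraries. The 4 markers of non-pigmented ciliary epithelium, a tissue rich in the pump, summed to 18.4 to 22.1 CPM in WT, 12.4 to 13.2 in I/M and 18.4 to 21.6 in M/M libraries. Of these 4, *Zic1* had at most 2 counts in WT libraries and 65 to 87 in M/M libraries. From WT to M/M the mean of *Col9a1* went from 5.1 to 2.63 CPM, that of *Aqp4* from 6.33 to 5.54 and that of *Ptgds* from 9.10 to 10.58. The 5 cornea markers summed to 0.236 to 0.436 CPM in WT, 0.231 to 0.418 in I/M and 3.66 to 6.72 in M/M libraries, with *Krt12* and *Kera* at no more than 3 counts in each of these groups. In M/M the cornea sum was mostly *Aldh3a1*, with a mean of 4.32 CPM against 0.302 in WT. *Krt5* ran from 0.0125 to 1.19 CPM between M/M libraries. The 6 markers of pigmented cells summed to 3.09 to 3.63, 5.32 to 6.17 and 2.89 to 3.46 CPM, with *Tyr*, *Mlana* and *Rpe65* at no more than 3 counts in each. *Tyrp1* made up most of these sums, with means of 2.25 CPM in WT, 4.65 in I/M and 1.92 in M/M. From WT to I/M the mean of *Pmel* went from 0.826 to 0.838 CPM and that of *Dct* from 0.194 to 0.237. The 5 markers of other neural retina summed to 0.273 to 0.708, 0.49 to 0.79 and 0.998 to 1.66 CPM. The part of these cells in the differences of *Atp1b1*, *Atp1b2*, *Fxyd1* and *Fxyd5* was not tested.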

How the data were processed

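RNA was measured in 12 lens libraries (poly-A selected TruSeq libraries, NovaSeq), 3 per genotype, grouped by sample title. The authors aligned and quantified reads with DRAGEN against Ensembl release 101 (mm10) and deposited unnormalized estimated counts for each gene and library. 88.4% of the counts were whole numbers. The authors also deposited CPM and edgeR fold changes and p-values for filtered genes. These fold changes and p-values were not used. Whole counts had been assumed when the tests were chosen, so the estimated counts were rounded.

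All 12 libraries entered one edgeR 4.0.16 quasi-likelihood fit under R 4.3.3 (TMM factors, CPM of at least 5 in at least 3 libraries, Benjamini–Hochberg adjustment per comparison), and every FDR in the text comes from it unless another setting is named. The filter left 8984 of 32253 genes with a count. Standard errors derive from the F statistic. Alternatives included DESeq2 1.42.0, other scalings and filters, and each library left out. Single values and shares were compared by two-sided exact permutation tests over libraries in Python 3.11.15 (scipy 1.17.1). Log2 CPM for pattern likeness used a prior count of 2. The procedure was tested on simulated data. Depth limits precision, and floors and counts cover counting error only.

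The genes, lists and thresholds for description were chosen with earlier results of these data known. The named genes were the beta genes, the partner list, the 3 largest rises and falls at FDR of at most 0.05 in M/M in each of the other lists, the 5 nearest genes in pattern, *Trpm3*, and leading markers. *Emcn*, *Lum*, *Dcn*, *Zic1*, *Aqp4*, *Acta2*, *Aldh3a1*, *Foxe3*, *Aqp1*, *Pmel* and *Dct* were chosen after their values were seen. Some genes of the lists are not reported here, so the partner list was shortened after its values were seen and its counts cover the rest. Exon lengths and positions are from a GENCODE annotation of GRCm38, matched by identifier, and promoters from RefSeq. Whether replicates were separate litters is not given in the sources used here, so p-values measure the spread between these pools.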

Additional observations from a re-analysis of the deposited data

How the results depend on the processing

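Of 1713 values recomputed under alternatives, 1631 kept their direction, their side of the threshold or their size. All 126 values of *Atp1b1* did, as did 123 of 126 of *Atp1b3* and 97 of 108 of *Atp1b2*, whose 26 to 191 counts per library limit what can be said of it.

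With library size only, *Atp1b3* no longer passed the FDR threshold, at -0.17 (I/M over WT), -0.19 (M/M over WT) and -0.0232 (M/M over I/M), the scaling itself moving the median of all genes. *Atp1b2* then stood at 1.85, 1.5 and 2.25 for M/M over WT, I/M and KO. The regulator *Nedd4l* reversed to 0.36 in M/M. On that scale 1354 genes were called in M/M over WT and 5016 passed FDR alone in I/M over WT.

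*Atp1b2* was given a test value by edgeR only with looser filters, and at CPM of at least 1 it entered mainly through the M/M libraries, where it was high, so that fit is no support for its difference. Its log2 fold changes were 1.33, 1.14, 1.77 and 0.63 without a filter, and 1.32, 1.16, 1.76 and 0.60 at CPM of at least 1, for M/M over WT, I/M and KO and for I/M over KO. DESeq2, the replicate block and the fits of 2 genotypes kept the filter and gave no value of *Atp1b2*. Without a filter, 343 (KO), 1215 (I/M) and 3455 (M/M) genes were called over WT and 2335 in M/M over I/M, against 51, 299, 804 and 422 in the fit of the text. At CPM of at least 1 these were 103, 663, 1634 and 1009. FDR alone without a filter gave 1191, 9323 and 7440 genes for KO and M/M over WT and M/M over I/M, against 392, 5637 and 4608. Fitting only WT and I/M called 178 genes. Counts not divided by exon length gave a difference of 28.5 points in the *Atp1b1* share of I/M over WT.

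Leaving out each library in turn moved *Atp1b1* between 2.28 and 2.46 (I/M) and between 2.76 and 2.93 (M/M), and *Atp1b3* between -0.42 and -0.28 and between -0.73 and -0.58. For M/M over I/M the ranges were 0.376 to 0.573 (*Atp1b1*) and -0.419 to -0.219 (*Atp1b3*). *Atp1b2* in M/M ranged from 1.22 to 1.49. Called genes ranged from 198 to 307 in I/M (198 without any 1 M/M library), from 527 to 831 in M/M (527 without M/M replicate 2) and from 181 to 438 in M/M over I/M (247, 181 and 190 without M/M replicates 1, 2 and 3). FDR alone in KO ranged from 234 (without KO replicate 3, or 235 without replicate 2) to 433. Leaving out both libraries whose column names end in an unexplained letter c (KO replicate 2 and M/M replicate 3), chosen after seeing the data, gave 33, 198 and 186 called genes in KO and I/M over WT and M/M over I/M, and 224 past FDR alone in KO.

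Same-numbered libraries share only a number (correlations of their deviations from -0.264 to 0.149 over 18 pairs). With the replicate block the log2 fold change of *Atp1b1* was 2.35 in I/M and 2.83 in M/M, that of *Atp1b3* was -0.37 and -0.70, neither gene changed its side of a threshold, and 300 and 806 genes were called.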
